A study of Mus musculus with 16 samples.

Results

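The genes described here encode regulators of G protein signalling, and the 10 members are Rgs2, Rgs4, Rgs7, Rgs8, Rgs10, Rgs11, Rgs12, Rgs14, Rgs16 and Rgs17. They were chosen by name from the 55385 genes measured, with earlier results of these data known. All 10 were among the 17222 genes with enough reads to be tested. RNA was sequenced from primary hippocampal cultures of newborn C57Bl/6N mice in 16 libraries, 4 in each of 4 groups. Cultures carried either Control-shRNA or an shRNA against Dnmt3a1, the long isoform of a DNA methyltransferase, and were left at baseline or given bicuculline for 4 h. Bicuculline blocks GABA-A receptors and drives bursts of action potentials. The comparisons asked which genes respond to this activity and which depend on Dnmt3a1.

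All 4 groups had therefore received a recombinant adeno-associated virus, with the shRNA under the U6 promoter and GFP under the chicken β-actin promoter, so there was no uninfected group among these libraries. Which shRNA construct was used is not in the sample labels. The study's text gives it as Dnmt3a1-shRNA2, so the knockdown rests on 1 shRNA. The 4 libraries of a group are described as independent neuronal preparations. Library totals lay between 28912697 and 29586355 estimated counts, and mitochondrial transcripts took 2.80% to 4.75% of them in Control-shRNA at baseline, 3.34% to 5.86% with bicuculline, and 2.73% to 5.99% and 3.58% to 6.60% in Dnmt3a1-shRNA. Among same-numbered libraries this share was higher with bicuculline in 3 of 4 pairs of Control-shRNA and 4 of 4 of Dnmt3a1-shRNA, and higher after knockdown in 3 of 4 at baseline and 4 of 4 with bicuculline. The groups overlapped in it, and its part in the results was not tested. Dnmt3a stood at 312 ± 13.8 CPM in Control-shRNA and 44.5 ± 3.66 CPM in Dnmt3a1-shRNA at baseline (mean ± SD, n = 4), and at 326 ± 11.8 and 45.3 ± 1.72 CPM with bicuculline. CPM here are counts scaled to the library total, with the TMM correction for differences in library composition. The Dnmt3a value sums all transcripts of the gene, short isoform included. As for the labelled tissue, 6 neuronal markers summed to 4872 to 6474 TPM (a level per transcript length, scaled to the library total) and 7 astrocyte markers to 192 to 449 TPM. The 8 microglial markers summed to 2.58 to 8.64 TPM, with Cx3cr1, P2ry12 and Itgam under 1 TPM in every library.

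RGS proteins bind the active, GTP-loaded alpha subunit of a heterotrimeric G protein and speed the hydrolysis of its GTP, which shortens the signal from the receptor. They fall into subfamilies by sequence and partner. The small R4 proteins (RGS2, RGS4, RGS8 and RGS16) hold little beyond the RGS domain, the R7 proteins (RGS7 and RGS11) work in complex with the beta subunit Gβ5, RGS12 and RGS14 of the R12 subfamily add Ras-binding and GoLoco regions, and RGS17 belongs to the RZ subfamily. In neurons they set how long responses to neurotransmitters such as acetylcholine, glutamate, opioids and GABA last at G protein-coupled receptors.

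In the GRCm38 genome, 5 of the members lay on chromosome 1, and the other members lay on chromosomes 5, 7, 10, 13 and 17, one each. Rgs8 (chr1:153653025-153700323, plus strand) and Rgs16 (chr1:153740349-153745468, plus strand) were neighbours, 40.0 kb apart. Rgs2 (chr1:143999338-144004161), Rgs4 (chr1:169741477-169747642) and Rgs7 (chr1:175059087-175492500) were on the minus strand. The 250 bases before the annotated start are shown for the R4 genes, because these hold the 3 members with the largest response to bicuculline and the 1 member called lower after knockdown. The sequences are from RefSeq on GRCm38.p6, written 5′ to 3′ on the strand of the gene. For Rgs8, which has 3 promoters in that table, the one at the start of the gene is shown. Capitals mark matches, on either strand, to the motifs searched: TGACGTCA and its shorter form TGACG, which the longer one contains, TGANTCA, GCGNGGGCG and CACGTG. The intervals are chr1:144004150-144004399 (minus strand) for Rgs2, chr1:169747643-169747892 (minus strand) for Rgs4, chr1:153740103-153740352 (plus strand) for Rgs16 and chr1:153652787-153653036 (plus strand) for Rgs8.
Rgs2: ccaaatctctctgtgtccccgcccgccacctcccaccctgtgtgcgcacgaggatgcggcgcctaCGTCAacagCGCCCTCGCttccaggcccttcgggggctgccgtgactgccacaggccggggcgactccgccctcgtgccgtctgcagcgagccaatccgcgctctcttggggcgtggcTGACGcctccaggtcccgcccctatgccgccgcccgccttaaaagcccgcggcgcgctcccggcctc
Rgs4: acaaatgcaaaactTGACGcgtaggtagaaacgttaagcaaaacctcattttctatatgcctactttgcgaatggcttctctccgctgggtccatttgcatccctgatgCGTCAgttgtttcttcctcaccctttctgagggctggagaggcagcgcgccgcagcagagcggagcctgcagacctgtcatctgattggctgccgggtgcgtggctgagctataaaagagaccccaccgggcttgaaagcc
Rgs16: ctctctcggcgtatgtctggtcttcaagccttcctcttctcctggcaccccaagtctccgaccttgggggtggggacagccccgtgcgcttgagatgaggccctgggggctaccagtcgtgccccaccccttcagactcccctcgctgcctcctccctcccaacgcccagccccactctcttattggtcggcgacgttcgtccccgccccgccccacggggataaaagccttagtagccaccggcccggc
Rgs8: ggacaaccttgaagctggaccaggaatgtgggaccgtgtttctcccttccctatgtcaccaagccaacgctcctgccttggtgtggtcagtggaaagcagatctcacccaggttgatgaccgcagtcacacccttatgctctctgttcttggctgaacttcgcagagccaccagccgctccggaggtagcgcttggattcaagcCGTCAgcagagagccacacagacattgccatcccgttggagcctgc

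The Rgs2 stretch held TGACG at 2 places, from base -185 to -181 and from -67 to -63 counted back from the start, and GCGNGGGCG from -176 to -168. That of Rgs4 held TGACG from -236 to -232 and from -141 to -137, and that of Rgs8 from -46 to -42. None of the 5 motifs was in the Rgs16 stretch, which says only that these letters are not in that window. Over all 32851 promoter stretches of this length in the table, TGACG was in 17.8%, TGANTCA in 6.75%, CACGTG in 6.02%, GCGNGGGCG in 4.70% and TGACGTCA in 1.55%. Of the 11 stretches of the 8 members with an entry, 4 held TGACG (Rgs2, Rgs4, Rgs8 and 1 of Rgs12), 2 held TGANTCA (Rgs12 and Rgs17), 1 held CACGTG (Rgs7) and 0 held TGACGTCA. CpG dinucleotides are a kind of site that DNA methyltransferases act on. They numbered 30 in the Rgs2 stretch, 17 in that of Rgs16, 13 in that of Rgs4 and 9 in that of Rgs8, where the median of all stretches was 6. The other 2 promoters of Rgs8, not shown, held 4 and 5 CpG. Among members outside the R4 subfamily, the count was 27 for Rgs10, 27 for Rgs17, 22 for Rgs7, and 14 and 3 for Rgs12. Rgs11 and Rgs14 had no entry.

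At baseline in Control-shRNA, Rgs4 had the highest level per length of the 10 genes, 321 ± 39.0 TPM (mean ± SD, n = 4). Rgs2 followed at 107 ± 22.8 TPM, Rgs7 at 70.6 ± 4.68 TPM and Rgs10 at 48.6 ± 5.97 TPM, and the libraries of these 4 genes did not overlap from one rank to the next. Rgs8 (28.2 TPM), Rgs11 (27.1 TPM), Rgs12 (23.9 TPM) and Rgs17 (18.4 TPM) each overlapped the next in the order, down to Rgs14 (15.8 TPM). Rgs16 was last at 7.94 ± 1.34 TPM and overlapped no other member. In Dnmt3a1-shRNA at baseline the order began with the same 4 genes, Rgs4 at 256 ± 31.4 TPM and Rgs2 at 97.3 ± 17.5 TPM leading. Rgs7 (65.5 TPM) and Rgs10 (49.1 TPM) overlapped there, and Rgs16 was again last at 5.86 ± 1.10 TPM.

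With bicuculline, Rgs4 stood at 1103 ± 44.3 TPM in Control-shRNA and 754 ± 35.6 TPM in Dnmt3a1-shRNA, and Rgs2 at 425 ± 60.6 and 447 ± 30.7 TPM. Rgs16 moved up from the last rank to rank 6 in Control-shRNA (37.7 ± 6.03 TPM) and rank 5 in Dnmt3a1-shRNA (30.3 ± 3.78 TPM), in both cases overlapping Rgs8. Rgs14 took the last rank in both, at 13.3 ± 3.49 and 14.3 ± 2.58 TPM. Summed over the 10 genes, the level was 669 ± 72.0 TPM at baseline and 1837 ± 129.5 TPM with bicuculline in Control-shRNA, and 571 ± 64.2 and 1478 ± 70.1 TPM in Dnmt3a1-shRNA. Rgs4 made up 48.0% of that sum at baseline and 60.1% with bicuculline in Control-shRNA, and 44.9% and 51.0% in Dnmt3a1-shRNA. The share of Rgs2 was 15.9% and 23.0% in Control-shRNA, and 17.0% and 30.2% in Dnmt3a1-shRNA.

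**Figure D1:**
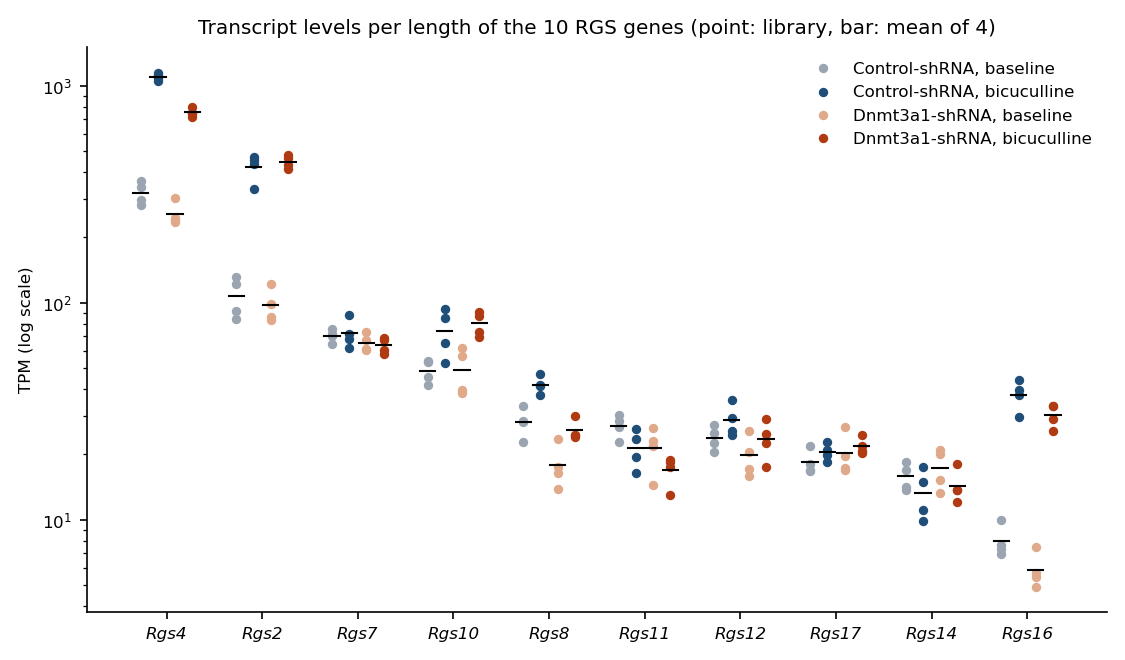
Level of each RGS gene in TPM (log scale) in the 16 libraries, with genes ordered by their mean at baseline in Control-shRNA, points for libraries and black bars for the mean of 4. Rgs4 leads in all 4 groups, from 256 to 1103 TPM in the group means, and Rgs16 rises from the lowest mean of the 10 at baseline to 37.7 and 30.3 TPM with bicuculline.

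The response to bicuculline was tested first in Control-shRNA cultures. A gene was called when its edgeR quasi-likelihood p, adjusted by Benjamini-Hochberg over the 17222 genes, was under 0.05 and its log2 fold change was beyond 0.5 in either direction. By this rule 5 of the 10 members were higher with bicuculline (Rgs2, Rgs4, Rgs8, Rgs10 and Rgs16), where 10.8% of all tested genes were called higher. Because the members were chosen with earlier results of these data known, such shares and medians are given for scale and do not test the set. None of the 10 was called lower, by edgeR, by voom with limma or by DESeq2, where 11.1% of all genes were called lower by edgeR. At an unadjusted p under 0.05, 0 members were lower and 8 higher by edgeR, beside 4331 and 3963 of all 17222 genes. The median log2 fold change of the members was 0.605, against 0.0057 over all tested genes. In Dnmt3a1-shRNA cultures the same 5 members were called higher and 0 lower, where 12.6% of all genes were called higher and 13.2% lower, and the median of the members was 0.606. These are bulk RNA values, in which a change in the number of cells of a type and a change in RNA per cell cannot be told apart.

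Rgs16, an R4 regulator of Gi and Gq signals, had the highest fold change of the members in this fit, with an interval that overlapped that of Rgs2. Its CPM were 8.39, 7.06, 7.08 and 10.3 in the 4 Control-shRNA libraries at baseline, and 56.4, 35.0, 42.6 and 46.6 with bicuculline. In Dnmt3a1-shRNA they were 5.97, 6.53, 7.52 and 6.02 at baseline and 46.1, 37.7, 30.2 and 42.5 with bicuculline. Every library with bicuculline lay above every baseline library. The log2 fold change was 2.46 (SE 0.16, adjusted p = 1.73e-09, edgeR quasi-likelihood) in Control-shRNA, or 5.50-fold, and 2.58 (SE 0.16, adjusted p = 9.22e-10) in Dnmt3a1-shRNA, or 5.99-fold.

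Rgs2 acts chiefly on Gq alpha subunits and is known as a gene induced by neuronal activity. It measured 70.7, 71.4, 87.6 and 103 CPM at baseline and 432, 314, 377 and 417 CPM with bicuculline in Control-shRNA. In Dnmt3a1-shRNA the 4 baseline libraries held 77.2, 70.3, 88.2 and 80.6 CPM, and those with bicuculline 490.4, 417, 370.0 and 443 CPM. The 2 conditions did not overlap with either shRNA, and the baseline libraries of both shRNAs covered much the same range. The log2 fold change was 2.21 (SE 0.13, adjusted p = 4.05e-10, edgeR) in Control-shRNA and 2.44 (SE 0.13, adjusted p = 9.54e-11) in Dnmt3a1-shRNA, which are 4.63-fold and 5.44-fold.

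Rgs4, an R4 regulator of Gi and Gq abundant in forebrain neurons, measured 397, 387, 452 and 456 CPM at baseline in Control-shRNA and 1789.6, 1586.5, 1665 and 1694 CPM with bicuculline. In Dnmt3a1-shRNA it measured 365, 353, 392 and 351 CPM at baseline and 1330.1, 1239, 1081 and 1309 CPM with bicuculline. With bicuculline, the highest Dnmt3a1-shRNA library lay below the lowest Control-shRNA library. Rgs4 rose by 1.99 on the log2 scale in Control-shRNA (SE 0.08, adjusted p = 2.42e-12, edgeR, 3.98-fold) and by 1.76 in Dnmt3a1-shRNA (SE 0.08, adjusted p = 7.69e-12, 3.39-fold).

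Rgs8, an R4 protein that speeds the gating of G protein-activated potassium channels, rose by less. It measured 71.0, 54.9, 62.4 and 77.7 CPM at baseline and 128.5, 99.0, 115 and 110.2 CPM with bicuculline in Control-shRNA. In Dnmt3a1-shRNA it measured 43.2, 36.6, 51.2 and 41.7 CPM at baseline and 77.8, 68.6, 77.6 and 74.9 CPM with bicuculline. Neither pair of groups overlapped, although the Dnmt3a1-shRNA libraries with bicuculline lay at the level of the Control-shRNA libraries at baseline. The log2 fold change was 0.77 (SE 0.11, adjusted p = 2.07e-05, edgeR) in Control-shRNA and 0.79 (SE 0.11, adjusted p = 1.29e-05) in Dnmt3a1-shRNA. The 6 GABAergic markers moved in the same direction, with a summed level of 1057 to 1207 TPM at baseline and 1336 to 1500 TPM with bicuculline in Control-shRNA, and of 720 to 918 and 1032 to 1202 TPM in Dnmt3a1-shRNA. Of these, 3 (Gad1, Gad2 and Dlx1) were called higher with bicuculline under each shRNA, and their part in the rise of Rgs8 was not tested.

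Rgs10, a small R12 protein known from microglia and also made by neurons, measured 16.3, 12.9, 11.2 and 15.4 CPM at baseline and 30.8, 18.2, 20.6 and 27.8 CPM with bicuculline in Control-shRNA. In Dnmt3a1-shRNA the values were 20.8, 12.6, 11.5 and 17.7 CPM at baseline and 34.8, 25.9, 22.5 and 31.5 CPM with bicuculline. The groups did not overlap with either shRNA, but the spread within them was wide. The log2 fold change was 0.80 (SE 0.20, adjusted p = 0.00347, edgeR) in Control-shRNA and 0.88 (SE 0.20, adjusted p = 0.00146) in Dnmt3a1-shRNA. Rgs10 lay between 38.3 and 93.0 TPM in single libraries, while the microglial markers summed to at most 8.64 TPM and 3 of the 8 were under 1 TPM throughout.

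In every group, the libraries numbered 1 and 4 held more Rgs10 than those numbered 2 and 3. Rgs12 and Rgs14 showed the opposite order in every group. This pattern was chosen after the values were seen, and 6.03% of all tested genes had the order of Rgs10 and 5.48% that of Rgs12 and Rgs14. The summed astrocyte markers and the summed oligodendrocyte-lineage markers were likewise lower in the libraries numbered 1 and 4 of every group. In Control-shRNA at baseline the astrocyte sums were 231 and 224 TPM in numbers 1 and 4, and 288 and 372 TPM in numbers 2 and 3. The CA2 markers were higher in numbers 1 and 4, at 504 and 506 TPM against 413 and 427 TPM in the same group. Their part in the spread of these genes was not tested.

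**Figure D2:**
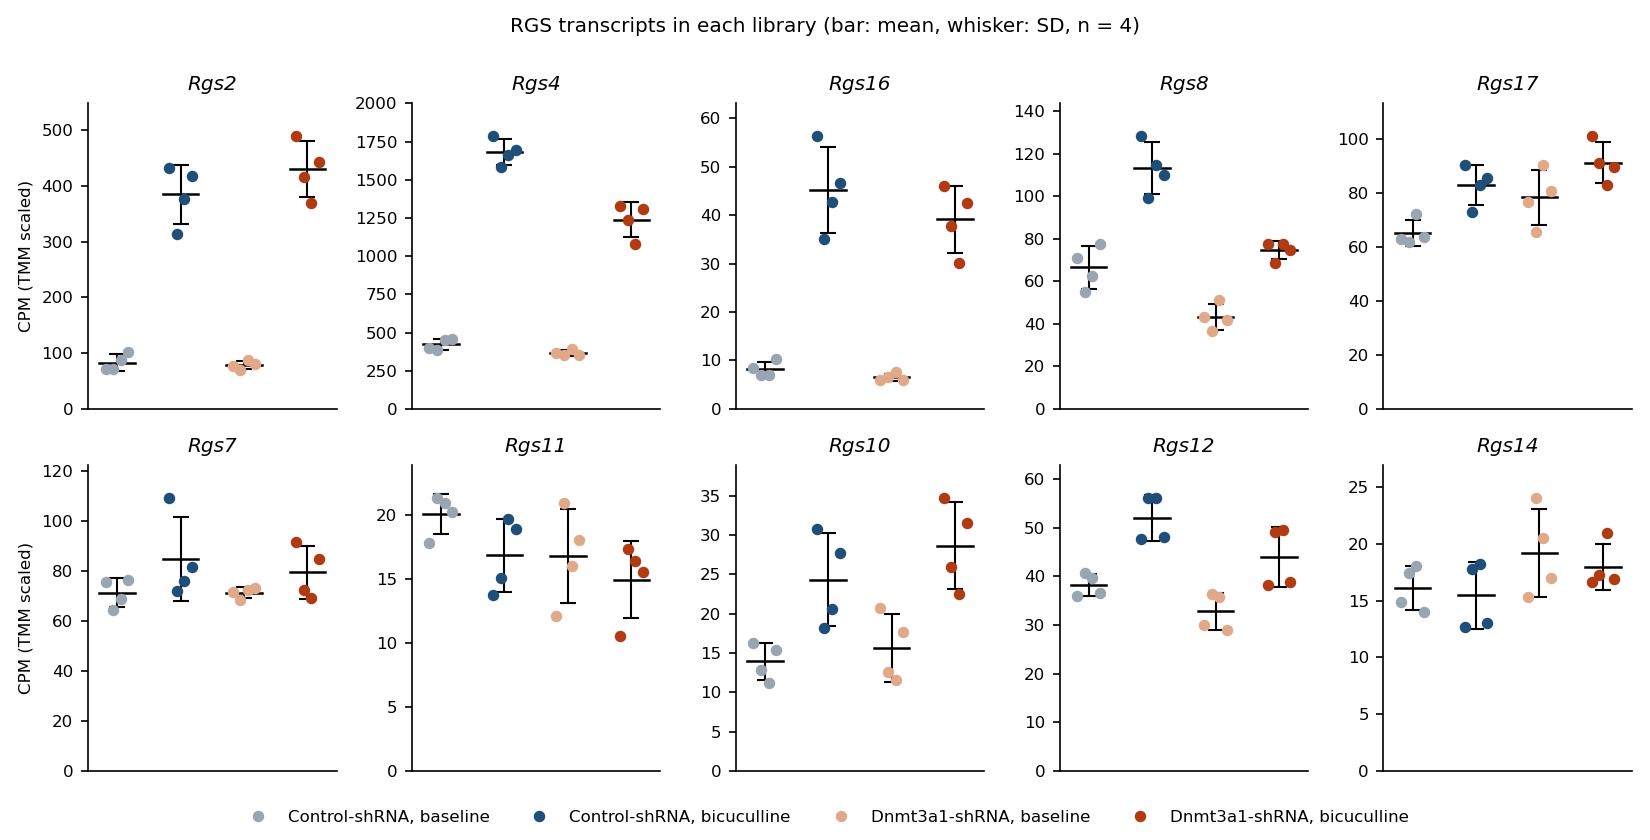
CPM (TMM scaled) of each of the 10 RGS genes in every library, with the upper row from Rgs2 to Rgs17 and the lower row from Rgs7 to Rgs14, points for libraries, bars for means and whiskers for SD (n = 4). The bicuculline groups of Rgs2, Rgs4, Rgs16, Rgs8 and Rgs10 lie above their baseline groups under both shRNAs, and both Dnmt3a1-shRNA groups of Rgs8 lie below the Control-shRNA group of the same condition.

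The other 5 members were not called with either shRNA. Rgs12, which carries Ras-binding and GoLoco regions beside its RGS domain, passed the adjusted p but not the fold limit. It measured 35.9, 40.7, 39.7 and 36.6 CPM at baseline and 47.8, 56.2, 56.0 and 48.0 CPM with bicuculline in Control-shRNA, with no overlap. The log2 fold change was 0.44 (SE 0.10, adjusted p = 0.00162, edgeR), and in Dnmt3a1-shRNA it was 0.42 (SE 0.10, adjusted p = 0.00218), also with no overlap.

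Rgs17, an RZ regulator of Gi and Gz, was likewise past the adjusted p in Control-shRNA alone, with 65.1 ± 4.75 CPM at baseline and 82.9 ± 7.42 CPM with bicuculline and a log2 fold change of 0.35 (SE 0.09, adjusted p = 0.00549, edgeR). In Dnmt3a1-shRNA the value was 0.22 (SE 0.09, adjusted p = 0.0603). The R7 member Rgs7 gave 0.25 (95% confidence interval 0.01 to 0.49, adjusted p = 0.0874) in Control-shRNA and 0.15 (-0.08 to 0.39, adjusted p = 0.288) in Dnmt3a1-shRNA. The Dnmt3a1-shRNA value turned negative when TPM were tested.

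Rgs11, the other R7 member, gave -0.25 (95% confidence interval -0.59 to 0.09, adjusted p = 0.236, edgeR) in Control-shRNA and -0.17 (-0.51 to 0.18, adjusted p = 0.439) in Dnmt3a1-shRNA. Its exons share 138 bases with those of Arhgdig on the opposite strand, which stood at 120.5 to 190 TPM. Whether the quantification used strand is not given in the sources used here, so its level is uncertain. Rgs14, a regulator known for its place in CA2 pyramidal neurons, gave -0.06 (-0.37 to 0.25, adjusted p = 0.795) in Control-shRNA and -0.10 (-0.41 to 0.21, adjusted p = 0.621) in Dnmt3a1-shRNA. The 5 CA2 markers summed to 298 to 506 TPM over the 16 libraries, in which Pcp4 stood at 231 to 394 TPM. With bicuculline 1 of the 5, Ntf3, at 1.70 to 10.5 TPM, was called lower under each shRNA.

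With the replicate number as a block, 9 of the 10 members passed the adjusted p in Control-shRNA, the exception being Rgs14, while the 5 calls stayed the same. Over all 17222 genes, 7131 passed it without the block and 8756 with it. Rgs7 then had an adjusted p of 0.0126 and Rgs11 of 0.0403 (edgeR with the replicate block), both under the fold limit. Where libraries were scaled by their totals alone, the median of all genes moved to -0.15 in Control-shRNA and -0.16 in Dnmt3a1-shRNA, so the changes above are relative to the TMM scaling. The same 5 members were called under that scaling.

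**Figure D3:**
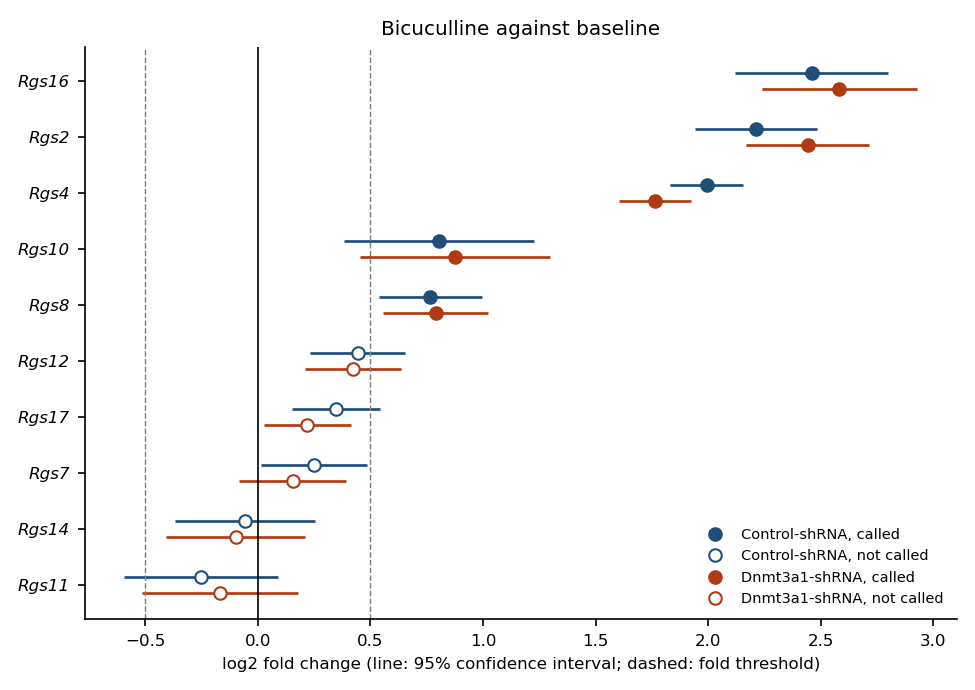
Log2 fold change of bicuculline against baseline for each RGS gene, in Control-shRNA (blue) and Dnmt3a1-shRNA (red) cultures, with lines for the 95% confidence interval, filled circles for called genes and dashed lines at the fold limit of 0.5. Rgs16, Rgs2 and Rgs4 lie between 1.76 and 2.58, Rgs10 and Rgs8 between 0.77 and 0.88, and the other members between -0.25 and 0.44.

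The knockdown was compared within each condition. At baseline, 1 of the 10 members, Rgs8, was called lower in Dnmt3a1-shRNA than in Control-shRNA, where 4.07% of all tested genes were called lower. None was called higher by edgeR, voom with limma or DESeq2, where 1.76% of all genes were called higher by edgeR. By edgeR, 1 member, Rgs17, was higher at an unadjusted p under 0.05 and 3 were lower. Of all 17222 genes, 2518 were higher and 2449 lower at that limit. The median log2 fold change of the members was -0.142, against 0.0070 over all tested genes. With bicuculline the count was again 1 lower, Rgs8, and 0 higher, where 3.90% of all genes were called lower and 2.0% higher. No member was higher there at an unadjusted p under 0.05 by edgeR and 3 were lower, beside 2487 and 2880 of all 17222 genes. These comparisons share their libraries with the bicuculline comparisons above.

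Rgs8 stood at 66.5 ± 9.94 CPM in Control-shRNA and 43.2 ± 6.05 CPM in Dnmt3a1-shRNA at baseline, and all 4 knockdown libraries lay below the lowest control library. It was lower by a log2 fold change of -0.62 (SE 0.11, adjusted p = 0.000821, edgeR), or 0.65-fold. With bicuculline it stood at 113 ± 12.2 and 74.7 ± 4.28 CPM, again with no overlap, and the log2 fold change was -0.60 (SE 0.11, adjusted p = 0.00105). The call held in both conditions without any single library, with a range of -0.72 to -0.54 over the 2 conditions. Per length, Rgs8 went from rank 5 of the 10 in Control-shRNA to rank 8 in Dnmt3a1-shRNA at baseline. The summed GABAergic markers were also lower after knockdown in both conditions, as given above, but 0 of the 6 were called, and their log2 fold changes ran from -0.42 to -0.003 at baseline and from -0.29 to 0.04 with bicuculline. Their part in the difference was not tested.

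Rgs4 was lower after knockdown with bicuculline, 1684 ± 83.9 CPM in Control-shRNA and 1239.8 ± 113 CPM in Dnmt3a1-shRNA, with no overlap between the groups. Its log2 fold change of -0.44 (SE 0.07, 95% confidence interval -0.60 to -0.29, adjusted p = 0.000515, edgeR) passed the adjusted p and fell short of the fold limit. It passed both when libraries were scaled by their totals alone (-0.51) and when log2(TPM + 1) was tested with limma (-0.55). In those fits the median of all genes also moved down, to -0.0757 and -0.0745, against -0.0057 with the TMM scaling. At baseline the log2 fold change of Rgs4 was -0.21 (SE 0.07, adjusted p = 0.0616), with overlapping groups at 423 ± 35.9 and 365 ± 18.7 CPM. The 5 excitatory markers summed to 1577 to 1678 TPM in Control-shRNA and 1332 to 1535 TPM in Dnmt3a1-shRNA at baseline, and to 1196 to 1413 and 1025 to 1337 TPM with bicuculline. After knockdown 0 of the 5 were called in either condition. On the TMM scale used for Rgs4, their log2 fold changes ran from -0.18 to 0.48 at baseline, with a median of 0.119. With bicuculline they ran from -0.26 to 0.47, with a median of 0.238. The part of these markers in the Rgs4 values was not tested.

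Among the remaining members no adjusted p passed 0.05 in either condition. At baseline, Rgs17 gave 0.26 (95% confidence interval 0.07 to 0.46, adjusted p = 0.06, edgeR), Rgs12 gave -0.22 (-0.43 to -0.01, adjusted p = 0.156) and Rgs16 gave -0.33 (-0.69 to 0.02, adjusted p = 0.203). Rgs14 gave 0.26 (-0.05 to 0.56) and Rgs11 -0.26 (-0.60 to 0.08). Rgs2, the second of the strong responders to bicuculline, gave -0.07 (-0.33 to 0.19, adjusted p = 0.754) at baseline and 0.16 (-0.10 to 0.42, adjusted p = 0.406) with bicuculline. The values of Rgs7 and Rgs10 at baseline, 0.00 and 0.17, changed sign when TPM were tested.

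With the replicate number as a block, 4743 of all 17222 genes passed the adjusted p for knockdown at baseline, against 2809 without the block. Of the members, 5 passed it with the block at baseline, where the numbers paired the libraries by the rule stated with the methods. Besides Rgs8 these were Rgs4 (adjusted p = 0.025, edgeR with the replicate block), Rgs12 (0.00325), Rgs17 (0.018) and Rgs14 (0.0322). All but Rgs8 stayed under the fold limit, so the number of calls was 1 with the block too.

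**Figure D4:**
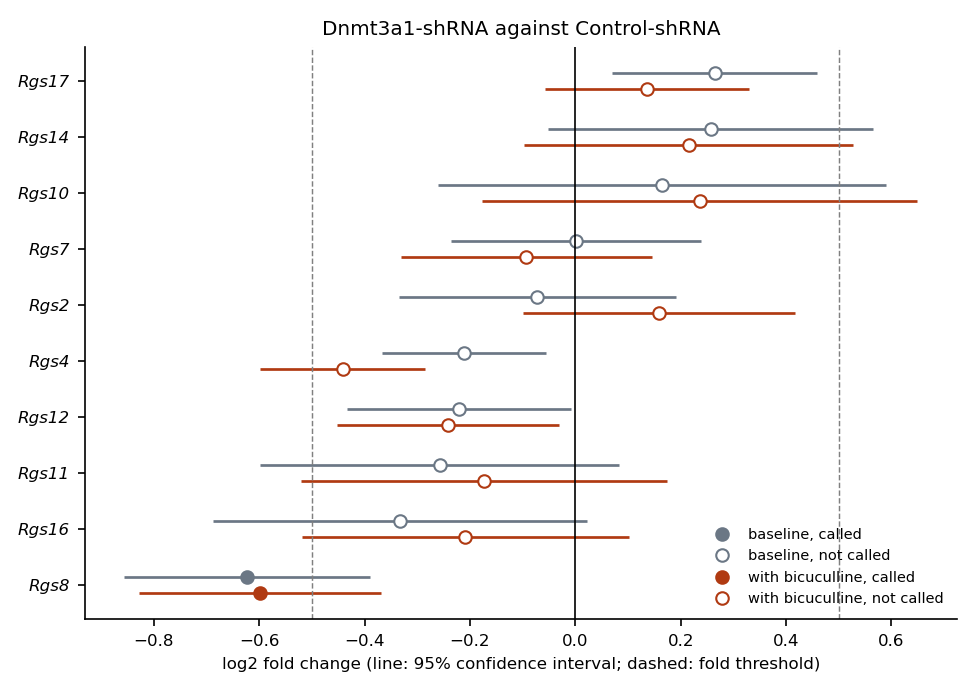
Log2 fold change of Dnmt3a1-shRNA against Control-shRNA for each RGS gene, at baseline (grey) and with bicuculline (red), with lines for the 95% confidence interval, filled circles for called genes and dashed lines at the fold limit of 0.5. Rgs8 is the 1 gene past the limit, at -0.62 and -0.60, and Rgs4 with bicuculline lies at -0.44 with an interval from -0.60 to -0.29.

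Whether the response to bicuculline differed between the shRNAs was tested as an interaction. None of the 10 members passed an adjusted p of 0.05 by edgeR, and the share of all 17222 genes that did was 0%. At an unadjusted p under 0.05, edgeR gave 1 member and 852 genes. By voom with limma 0 members and 0 genes passed the adjusted p, by DESeq2 0 members and 17 genes, and by edgeR with the replicate block 0 members and 3 genes. The 1 member past the unadjusted p was Rgs4, whose response was smaller in Dnmt3a1-shRNA by a log2 difference of -0.23 (95% confidence interval -0.45 to -0.01, adjusted p = 0.984, edgeR quasi-likelihood). For Rgs2 the difference was 0.23 (-0.14 to 0.60), for Rgs16 0.12 (-0.35 to 0.59), for Rgs10 0.07 (-0.52 to 0.66) and for Rgs8 0.02 (-0.30 to 0.35).

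The genes whose pattern over the 16 libraries was most like that of each called member were found by the root mean square difference of log2 CPM, each gene centred on its own mean, among the 13840 genes that averaged 1 CPM or more. For Rgs2 they were Arid5b (0.13), Fosl2 (0.14) and Scg2 (0.15), where Rgs2 itself varied by 1.18 about its mean. For Rgs16 they were Plk2 (0.16), Fam107b (0.19) and Nrn1 (0.20), and for Rgs4 Gla (0.17), Zfp275 (0.17) and Slc16a1 (0.20). Rgs10 was closest to Nectin3 (0.10), Cyp51 (0.13) and Acsl4 (0.14). Rgs8 was closest to C1galt1 (0.16), Armcx3 (0.17) and Slc7a14 (0.17), which is nearer to its own variation of 0.52 than for Rgs2.

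The other RGS genes and the partners of RGS proteins were counted from lists by the same rule. Of the 11 further Rgs genes, 7 were tested. In Control-shRNA, bicuculline raised 1 of them, Rgs20, an RZ relative of Rgs17, from 7.94 ± 1.47 to 12.5 ± 1.08 CPM (log2 fold change 0.66, adjusted p = 0.000688, edgeR), and lowered 0. Rgs19, the third RZ gene, stood at -0.48 there (adjusted p = 0.000101), under the fold limit, and was called with library totals alone (-0.64), with TPM (-0.56 and -0.57) and without Control-shRNA baseline replicate 3 (-0.53). In Dnmt3a1-shRNA it raised Rgs20 (0.68, adjusted p = 0.000421) and lowered Rgs19 (-0.67, adjusted p = 2.35e-06). The Rgs20 call in Control-shRNA was lost when libraries were scaled by their totals alone (0.49). It was also lost when TPM were tested with limma (0.34 and 0.35, adjusted p = 0.139 and 0.14). The median of the 7 was 0.208 in Control-shRNA and 0.141 in Dnmt3a1-shRNA, and knockdown called 0 of them in either condition. Rgs9 with bicuculline (-0.43, adjusted p = 0.113) was called after knockdown without Control-shRNA bicuculline replicate 1 (-0.57).

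Of 5 partners of the R7 proteins, Rgs7bp, a membrane anchor of the complex, rose with bicuculline from 269.99 ± 39.0 to 471 ± 95.4 CPM in Control-shRNA (log2 fold change 0.80, adjusted p = 0.00167, edgeR) and from 164 ± 36.7 to 333 ± 80.6 CPM in Dnmt3a1-shRNA (1.02, adjusted p = 0.000176). At baseline it was lower after knockdown, by -0.72 (SE 0.18, adjusted p = 0.0118), the 1 call in this list for knockdown at baseline. For knockdown with bicuculline it stood at -0.50 (adjusted p = 0.0665, edgeR) and was not called. It was called there with the replicate block (-0.51, adjusted p = 2.8e-05), with library totals alone (-0.58), with TPM (-0.61), and without Control-shRNA bicuculline replicate 2 (-0.59), Dnmt3a1-shRNA bicuculline replicate 1 (-0.65) or Dnmt3a1-shRNA baseline replicate 2 (-0.50). The median of all genes for that comparison was -0.0757 with library totals alone, and -0.0745 and -0.0976 with TPM. Rgs9bp, an anchor of RGS9, fell with bicuculline by 0.89 on the log2 scale in Control-shRNA and by 1.09 in Dnmt3a1-shRNA, from a mean of at most 1.35 CPM. The Rgs9bp call in Control-shRNA was lost without Control-shRNA baseline replicate 1 (-0.58) and without Control-shRNA bicuculline replicate 3 (-0.79). With log2(TPM + 1) the Rgs9bp call was lost under each shRNA (-0.25 and -0.24). The median of the 5 was -0.048 and -0.040 for bicuculline, close to that of all tested genes.

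The G protein subunits were counted next. Of 12 tested alpha subunits, 1 was higher with bicuculline under each shRNA, Gnat1, the rod transducin subunit, with group means of at most 0.94 CPM. Of 13 tested beta and gamma subunits, 2 were higher in Control-shRNA, Gnb3 and Gng11, and 1 in Dnmt3a1-shRNA, Gnb3, both at means of at most 0.67 CPM. These counts stand beside the 10.8% and 12.6% of all tested genes called higher. Other alternatives added calls, named here after their values were seen. They were Gng10 with bicuculline under both shRNAs (-0.51 and -0.58 with library totals alone, also with TPM), and in Dnmt3a1-shRNA Gna12 (-0.53 with log2(TPM + 1)), Gnaz (-0.50 with log2(TPM + 0.1)) and, with no filter on low counts, Gnat2 (1.57) and Gna14 (2.01). With at least 10 counts required in every library, none of the low genes Gnat1, Gnb3, Gng11, Gnat2 and Gna14 was left to test. The Gng11 call was lost without Control-shRNA bicuculline replicate 3 (0.99) and the Gnb3 call in Dnmt3a1-shRNA without Dnmt3a1-shRNA bicuculline replicate 1 (1.13). The Gng11 call was also lost with log2(TPM + 1) (0.46), and that Gnb3 call with log2(TPM + 1) (0.29) and log2(TPM + 0.1) (0.91). After knockdown Gng13 was lower at baseline (-0.79, adjusted p = 0.0412, edgeR) and with bicuculline (-0.93, adjusted p = 0.0166), at 1.95 to 4.11 CPM in the group means. The baseline call was lost in 9 of the 16 fits that left out 1 library, with values of -0.82 to -0.58, and the call with bicuculline without Control-shRNA bicuculline replicate 3 (-0.76) or Dnmt3a1-shRNA bicuculline replicate 1 (-0.83). The medians for bicuculline in Control-shRNA were 0.139 for the alpha subunits and 0.224 for the beta and gamma subunits.

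Among 6 receptor kinases, which turn off the receptor itself, Grk5 rose with bicuculline from 17.3 ± 1.85 to 37.8 ± 0.777 CPM in Control-shRNA (log2 fold change 1.13, adjusted p = 3.38e-07, edgeR) and by 1.15 in Dnmt3a1-shRNA (adjusted p = 2.1e-07). The median of the 6 was -0.043 and -0.239. In Dnmt3a1-shRNA, Grk3 (-0.48, adjusted p = 0.000158) and Grk2 (-0.33, adjusted p = 0.000293) passed the adjusted p under the fold limit, and Grk4 stood at -0.41 (adjusted p = 0.0883). The number of kinases called there was 3 with library totals alone (Grk3 and Grk4 added) or with TPM (Grk2 and Grk3 added). It was 2 without Dnmt3a1-shRNA bicuculline replicate 1 (Grk4 added, -0.54), Dnmt3a1-shRNA bicuculline replicate 3 (Grk3, -0.52) or Dnmt3a1-shRNA baseline replicate 1 (Grk3, -0.53), and 3 without Dnmt3a1-shRNA baseline replicate 2 (Grk3 and Grk4). In Control-shRNA Grk3 was added with TPM. Of 5 GoLoco regulators, which hold alpha subunits in the GDP-bound form, Gpsm2 rose by 0.54 (adjusted p = 0.00139) and 0.65 (adjusted p = 0.000223). Both calls were lost when libraries were scaled by their totals alone and when TPM were tested. With TPM and limma, the adjusted p of Gpsm2 in Control-shRNA was 0.063 and 0.0625. The Control-shRNA call of Gpsm2 was also lost without Control-shRNA bicuculline replicate 1 (0.41) or Control-shRNA baseline replicate 2 (0.49). In the knockdown at baseline Gpsm1 was higher by 0.59 (adjusted p = 0.000126), and fell under the fold limit when TPM were tested (0.4579 and 0.4634). After knockdown with bicuculline 0 of the 5 GoLoco regulators were called. Of 3 tested GIRK channel genes, the potassium channels that beta-gamma subunits open, Kcnj6 rose (0.59 and 0.63, adjusted p = 0.000466 and 0.00019, edgeR) and Kcnj9 fell (-0.54 and -0.52, adjusted p = 3.85e-05 and 5.58e-05) with bicuculline under Control-shRNA and Dnmt3a1-shRNA. The Kcnj6 calls were lost when libraries were scaled by their totals alone. With TPM they were lost too (0.36 and 0.38 in Control-shRNA, 0.38 and 0.41 in Dnmt3a1-shRNA). The Kcnj9 call in Dnmt3a1-shRNA was lost by DESeq2 (-0.49) and without Dnmt3a1-shRNA bicuculline replicate 1 (-0.47), Dnmt3a1-shRNA bicuculline replicate 4 (-0.49) or Dnmt3a1-shRNA baseline replicate 3 (-0.46). Knockdown called 0 of the 3. Kcnj3 at baseline stood at -0.48 (adjusted p = 0.0187, edgeR), under the fold limit. It passed both limits with library totals alone (-0.56), with TPM (-0.60 and -0.61), and without Control-shRNA baseline replicate 2 (-0.54), Dnmt3a1-shRNA baseline replicate 1 (-0.57) or Dnmt3a1-shRNA baseline replicate 4 (-0.51). The median of all genes for knockdown at baseline was -0.0724 with library totals alone, and -0.0799 and -0.1039 with TPM. Over these 7 lists the median log2 fold change lay between -0.308 and 0.193 for knockdown at baseline and between -0.242 and 0.161 with bicuculline.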

How the data were processed

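The authors trimmed the reads with Trim Galore 0.6.4 (version from the submitters' processing notes), quantified them with kallisto on GRCm38, and deposited 2 values per gene and library: the estimated count, not scaled for depth, and TPM, scaled for transcript length and library total. Gene identifiers were matched to GENCODE M21 symbols (55144 of 55385). Promoters came from RefSeq on GRCm38.p6.

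After rounding of the estimated counts, edgeR 4.0.16 (R 4.3.3) gave the tests (filterByExpr, TMM, 1 quasi-likelihood fit of the 4 groups, Benjamini-Hochberg over 17222 genes). Genes were called at an adjusted p under 0.05 with a log2 fold change beyond 0.5 in size, except for the interaction, which used the adjusted p alone. Intervals are 95% intervals of the fit. TPM served to order genes by level. The test was checked on simulated counts.

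The members and the lists were chosen with earlier results of these data known. Named besides the members are Dnmt3a, called genes of 7 lists (at most 2 a direction and comparison), markers, and the 3 genes most alike each called member. List genes called under an alternative alone, or short of a limit, were named after their values were seen.

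No 2 libraries of a group were alike within sampling noise (chi-square of 7.88 to 44.5 for each degree of freedom). The labels number the libraries of each group 1 to 4 without saying what a number shares. After subtracting group means, libraries with the same number correlated across genes, which are not independent replicates, at r of 0.142 to 0.221 for bicuculline in Control-shRNA and 0.204 to 0.355 for knockdown at baseline. With every r over 0.1, the numbers were taken to pair these libraries. In the other 2 comparisons number 4 gave r of 0.0631 and 0.0667. The other numbers gave 0.125 to 0.337 for bicuculline in Dnmt3a1-shRNA and 0.128 to 0.388 for knockdown with bicuculline. Pairing was left undecided in these 2 comparisons. Alternatives were the replicate block, voom with limma 3.58.1, DESeq2 1.42.0, DESeq2 size factors or library sizes only in edgeR, other count filters, limma on log2(TPM + 1) and log2(TPM + 0.1), fits of the 2 groups compared, other fold limits, and each library left out.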

Additional observations from a re-analysis of the deposited data

Results flagged for a closer look

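Among 40 sets of 4 libraries (10 members in 4 groups), 1 held a library whose distance from its nearest neighbour took up more of the range than Dixon's 95% limit for 4 samples. It was Rgs14 in Dnmt3a1-shRNA with bicuculline, where replicate 3 measured 20.94 CPM and the other libraries 16.7 to 17.3 CPM, a gap of 0.848 of the range on the log2 scale. Chance alone gives about 5% of such sets. Without that library the log2 fold change of Rgs14 with bicuculline in Dnmt3a1-shRNA was -0.18, against -0.10 with it, and it was not called either way.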

How the results depend on the processing

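The 5 members called with bicuculline under each shRNA, and Rgs8 in both knockdown comparisons, kept their calls under every alternative with the fold limit of 0.5, including each library left out. With an absolute log2 fold change over 1, 3 members were called with bicuculline in Control-shRNA, 3 in Dnmt3a1-shRNA, and 0 in either knockdown comparison. For knockdown with bicuculline the count was 2, Rgs4 besides Rgs8, with library sizes only, log2(TPM + 1), log2(TPM + 0.1) or no fold limit. With library sizes only, log2(TPM + 1) and log2(TPM + 0.1), the median of all genes there was -0.0757, -0.0745 and -0.0976. With the replicate block the counts stayed at 5, 5, 1, 1 and 0. In the 2 comparisons where pairing was left undecided, the block also moved the members past the adjusted p. They went from 6 to 7 for bicuculline in Dnmt3a1-shRNA, with Rgs17 added (adjusted p = 0.0189, edgeR with the replicate block). For knockdown with bicuculline they went from 2 to 4, with Rgs10 (0.0165) and Rgs12 (0.00141) added. Over all 17222 genes, the number past the adjusted p went from 7919 to 9398 for bicuculline in Dnmt3a1-shRNA. For knockdown with bicuculline it went from 3044 to 5157. The cause of these changes was not tested.

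Signs turned for uncalled values near 0. With log2(TPM + 1) and log2(TPM + 0.1) these were Rgs7 with bicuculline in Dnmt3a1-shRNA (-0.0410, -0.0416), Rgs7 and Rgs10 after knockdown at baseline (-0.1075, -0.1089 and -0.0074, -0.0080), and the interactions of Rgs8 (-0.0323, -0.0240) and Rgs14 (0.0085, 0.0125). Rgs7 at baseline also turned with library sizes only (-0.0757), the filter of 10 counts (-0.0084) and the 2 groups alone (-0.0102). With each library left out, ranges crossed 0 for Rgs14 with bicuculline in Control-shRNA (-0.1477 to 0.0213) and Dnmt3a1-shRNA (-0.1932 to 0.0270), for Rgs2, Rgs7 and Rgs10 after knockdown at baseline (-0.1423 to 0.0461, -0.0440 to 0.0363, -0.0016 to 0.2871) and for Rgs7 after knockdown with bicuculline (-0.1691 to 0.0496). For the interaction they did for Rgs7 (-0.1695 to 0.0499), Rgs8 (-0.0588 to 0.1171), Rgs10 (-0.0505 to 0.2381), Rgs11 (-0.0420 to 0.2169), Rgs12 (-0.0823 to 0.0382), Rgs14 (-0.1356 to 0.0845) and Rgs16 (-0.0053 to 0.2462). At 28912697 or more counts a library, genes under 1 CPM rest on few reads.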

Other observations

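The Rgs genes beside the members on chromosome 1 were at low levels in these cultures. They were looked up for their position after values had been seen. Rgs13, Rgs1, Rgs21 and Rgs18 follow Rgs2 on the chromosome, the nearest, Rgs13, 134.5 kb away. Rgs13 stood at 2.81 to 8.06 TPM over the 16 libraries, Rgs1 at 1.37 TPM at most, and Rgs21 and Rgs18 at 0.0413 and 0.0367 TPM at most, while Rgs2 stood at 83.4 to 478 TPM. Rgs5, 45.7 kb from Rgs4, stood at 3.40 to 6.97 TPM, while Rgs4 stood at 234 to 1149 TPM.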
